A study of Mus musculus with 12 samples.

Results

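Plasma cells and plasmablasts, the antibody-secreting cells of the B lineage, were examined in 12 droplet single-cell RNA libraries from mouse lymph nodes. They were chosen by rule from all cells with at least 1000 UMIs (unique molecular identifiers, 1 per captured transcript), at least 500 genes and at most 10% mitochondrial UMIs. A member had at least 10 UMIs of Jchain, at least 3 UMIs of Xbp1, no UMI of Cd3d, Cd3e or Cd3g and no UMI of Siglech. This rule took 613 of 95358 cells. Jchain and Xbp1 chose the cells, so their levels are given only as a description.

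All mice were C57BL/6 animals of 7 to 10 weeks with the genotype ATG12 fl/fl x CDH5 CreER, either positive or negative for the Cre, and all of them, Cre-negative mice included, had 5 doses of tamoxifen. The CDH5 promoter drives CreER in endothelial cells, so deletion of Atg12 was directed at endothelium and not at the cells described here. Vehicle mice received acetone and olive oil on the shaved abdomen, and the others received 50 ul of 4% oxazolone, a contact sensitiser, in the same solvent and were collected on day 3 or day 7. Each of the 6 combinations of treatment and Cre label gave 2 libraries: 1 of the cells left after CD45 beads, labelled CD31, and 1 of the bead-bound cells, labelled CD45. Each combination thus had 1 library per fraction, and the number of mice behind a library is not given in the sources used here. Differences between combinations therefore rest on single libraries, and p-values measure the spread between these libraries only, which may be technical.

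Libraries held between 36724887 and 76187731 UMIs and between 5984 and 11636 cells. Atg12 in endothelial cells was 53.0, 46.8 and 52.3 CPM (a UMI count scaled to a fixed total of UMIs outside immunoglobulin genes and Jchain, the usual counts-per-million unit) in the libraries labelled Cre-negative at vehicle, day 3 and day 7, and 74.1, 60.9 and 62.7 CPM in those labelled Cre-positive. The floxed gene was thus not lower under the Cre-positive label, but 3' counts of the whole gene need not cover the deleted part and so do not check the labels. In the members Atg12 lay between 25.8 and 31.5 CPM. No member barcode occurred among the members of another library, and 9 member barcodes also passed as a cell elsewhere; any 2 libraries shared at most 31 cell barcodes.

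Plasma cells arise when an activated B cell switches on Prdm1, Irf4 and Xbp1 and turns off the B-cell programme. Plasmablasts are their dividing precursors, and mature plasma cells no longer divide and devote much of their transcript pool to immunoglobulin. Xbp1 enlarges the endoplasmic reticulum (ER), where the translocon admits nascent chains, chaperones and disulfide isomerases fold them, oligosaccharyltransferase attaches sugars and ER-to-Golgi carriers export them. The heavy-chain constant region sets the antibody class: IgM is made before class switching, IgG classes circulate, and IgA is the class of mucosal surfaces. The J chain links IgM and IgA into polymers.

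The unfolded protein response reaches ER chaperone genes through a promoter sequence called the ER stress response element, and 4 promoters that hold it are printed here, those of 3 genes that were lower and 1 that was higher in the comparison of cycling members below. The 250 bases before the RefSeq start site (GRCm38.p6) are given 5' to 3' on the gene's strand, and capitals mark the fixed letters of the element, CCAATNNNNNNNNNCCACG on either strand. Hspa5 lies on the plus strand at chr2:34771840-34772089, Hsp90b1 on the minus strand at chr10:86705445-86705694, Derl3 on the plus strand at chr10:75893148-75893397 and Canx on the minus strand at chr11:50325674-50325923.
Hspa5: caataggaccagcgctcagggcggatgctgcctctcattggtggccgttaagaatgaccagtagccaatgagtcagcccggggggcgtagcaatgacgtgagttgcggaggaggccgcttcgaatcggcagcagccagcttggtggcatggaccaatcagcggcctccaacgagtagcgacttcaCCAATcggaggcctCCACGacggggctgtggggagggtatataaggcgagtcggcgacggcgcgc
Hsp90b1: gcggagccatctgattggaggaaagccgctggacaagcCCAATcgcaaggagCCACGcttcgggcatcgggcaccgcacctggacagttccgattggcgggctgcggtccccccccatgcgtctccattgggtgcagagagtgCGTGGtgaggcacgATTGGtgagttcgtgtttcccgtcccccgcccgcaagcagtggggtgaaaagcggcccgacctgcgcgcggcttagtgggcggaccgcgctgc
Derl3: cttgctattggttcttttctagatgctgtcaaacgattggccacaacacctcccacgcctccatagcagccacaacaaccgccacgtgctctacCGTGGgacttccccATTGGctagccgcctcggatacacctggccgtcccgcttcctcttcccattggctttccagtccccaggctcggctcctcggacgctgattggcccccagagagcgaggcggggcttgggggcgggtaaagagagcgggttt
Canx: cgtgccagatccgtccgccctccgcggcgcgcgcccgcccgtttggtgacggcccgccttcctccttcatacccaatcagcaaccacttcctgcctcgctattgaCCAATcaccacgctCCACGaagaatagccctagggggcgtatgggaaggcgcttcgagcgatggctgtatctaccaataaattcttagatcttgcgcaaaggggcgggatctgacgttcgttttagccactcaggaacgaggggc
The letters occurred in 37 of 32851 promoters of this length (0.113%) and in 10 of the 28 promoters found for the list of ER chaperone genes (35.7%), those of Calr, Canx, Creld2, Derl3, Dnajc3, Ero1b, Hsp90b1, Hspa5, Pdia6 and Syvn1. The 28 promoters belong to 25 of the 28 listed genes, since some genes have more than 1 promoter and others had none to search. The promoter of Edem2, a chaperone-list gene that was lower in the comparison of cycling members below, did not hold these letters. None of the 16 promoters of translocon genes, 16 of glycosylation genes or 21 of ER-to-Golgi genes held them. These promoters covered 16 of 23, 14 of 15 and 19 of 22 listed genes, and the other listed genes were not searched. The shorter element TGACGTGG, searched on both strands, occurred in 185 promoters (0.563%), none of them from the chaperone list, and in 3 of the 21 ER-to-Golgi promoters. A match describes the letters and is not evidence of binding.

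The members carried the transcripts of antibody-secreting cells. B cells, set beside them, had at least 2 UMIs each of Ms4a1 and Cd79a, at most 2 of Jchain and no Cd3 UMI. The Jchain limit keeps antibody-secreting cells out of these B cells, so part of each contrast with them was set by the choice. A UMI of Sdc1 (syndecan-1, CD138) or Prdm1 (Blimp-1) was present in 528 members (86.1%), Sdc1 alone in 72.1% against 0.789% of 15846 B cells, and Prdm1 in 61.2% against 1.93%. Mzb1, a chaperone of the secretory pathway in B-lineage cells, was found in 99.5% of members, Derl3, an ER-associated degradation factor, in 84.3%, and Tnfrsf17 (BCMA), a survival receptor, in 46.2% against 0.038% of B cells. Members were deeper than B cells, with a median of 20000 UMIs (1337 to 112317) against 3638, which by itself raises the share of cells with a UMI. On the CPM scale the direction was the same: Hsp90b1, an ER chaperone, lay between 3327 and 9681 CPM in the 6 combinations and between 273 and 571 CPM in B cells. Immunoglobulin genes took a median of 35.8% of a member's UMIs and 1.03% of B-cell UMIs. The 19 genes of the B-cell list summed to between 5045 and 8512 CPM in members and between 24390 and 28440 CPM in B cells, which Ms4a1 of that list chose. In T cells they summed to 592 to 1294 CPM and in endothelial cells to 1142 to 1522 CPM. The B-cell list was thus lower in members than in B cells but was not absent.

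Other lineages were present at the transcript level. At least 3 UMIs of markers of another lineage were found in 446 members (72.8%). The same share in other cells of like depth is not given here. Doublet scores (Scrublet) high enough to be removed in an alternative were held by 93 of 613 members. Over all cells they were held by 6304 of 95358, a smaller share. The score of 25 members lay within 0.005 of the one at which removal starts, 9 of them on the removed side. Of the 16 members of day 7 Cre-negative 13 had such high scores, and of the 24 of vehicle Cre-positive 15. At the edges of the rule, 11 members had 10 to 14 Jchain UMIs and 23 had exactly 3 Xbp1 UMIs. Just outside it, 12 cells had 5 to 9 Jchain UMIs with enough Xbp1, 94 had enough Jchain with 1 or 2 Xbp1 UMIs and 93 had no Xbp1 UMI, while 57 cells were left out for a Cd3 UMI and 8 for a Siglech UMI.

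The members were unevenly spread over the libraries. In the CD45 fraction they made up 1.82% of cells (95% exact binomial interval 1.55 to 2.13%, 154 cells) in the library labelled vehicle Cre-negative and 1.85% (1.57 to 2.15%, 161 cells) in that labelled day 7 Cre-positive. The other CD45 libraries held 0.239% (vehicle Cre-positive, 15 cells), 0.363% (day 3 Cre-negative, 30 cells), 0.301% (day 3 Cre-positive, 18 cells) and 0.118% (day 7 Cre-negative, 9 cells). The 2 high libraries had intervals that did not meet those of the other 4, and these intervals cover counting error only.

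In the CD31 fraction, sorted as CD45-negative, the same 2 combinations were high, with vehicle Cre-negative first. Members were 1.34% of cells (1.12 to 1.58%, 134 cells) in vehicle Cre-negative and 0.808% (0.602 to 1.06%, 51 cells) in day 7 Cre-positive. The remaining 4 libraries held between 7 and 15 members, at 0.0869 to 0.148% of cells. Relative to B cells of the same library, the CD45 fraction held 7.00 and 7.85 members per 100 B cells in the 2 high combinations and between 0.533 and 1.46 in the others. Because the shares depend on how many other cells were sorted, fewer plasma cells and more of another cell type cannot be told apart. The 2 high combinations, which differ in both treatment and label, also resembled each other in the antibody classes given below. The labels were used as given and were not checked by a measurement, and whether labels were exchanged was not tested, which bears on every treatment and label value.

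**Figure D1:**
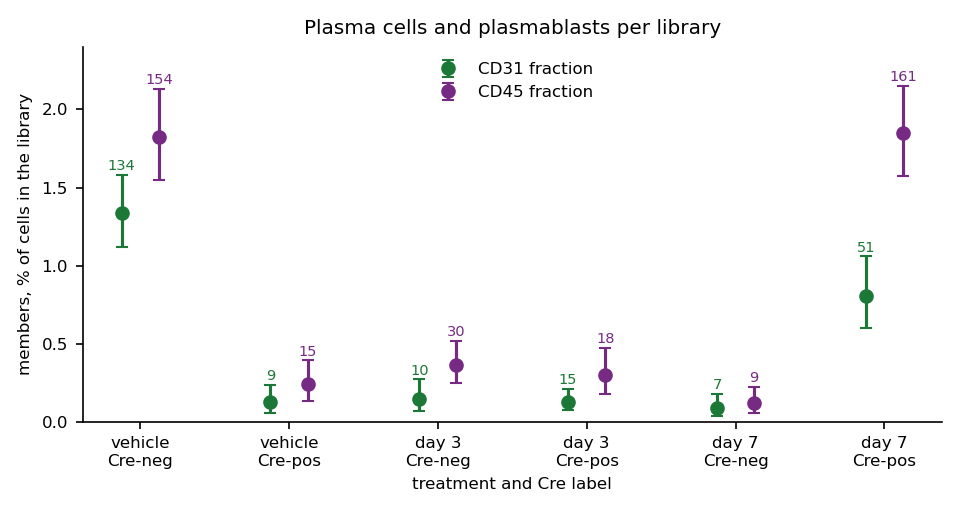
Members as a percentage of the cells of each library (y axis) for the 6 combinations of treatment and Cre label (x axis), with CD31 libraries in green and CD45 libraries in purple; bars are 95% exact binomial intervals and numbers are member counts. The libraries labelled vehicle Cre-negative and day 7 Cre-positive stand above the other 4 combinations in both fractions.

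The Cre label had opposite signs at vehicle and at day 7 and gave no difference over the 3 treatments that passed a test. Over the CD45 libraries the mean share was 0.795% ± 0.911 (SD, n = 3) under the Cre-positive and 0.768% ± 0.921 (SD, n = 3) under the Cre-negative label, a difference of 0.0278 percentage points (two-sided exact permutation p = 0.9, where 0.10 is the smallest p that 3 against 3 allows). Over the CD31 libraries the difference was -0.170 percentage points (exact permutation p = 0.8). Within treatments the Cre-positive minus Cre-negative difference in the CD45 fraction was -1.58 percentage points at vehicle, -0.0623 at day 3 and 1.73 at day 7. Treatments, with 2 libraries each, were not tested.

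The dominant heavy-chain class separated the same 2 combinations from the rest. A class was given to 610 members, those with at least 10 heavy-chain constant UMIs of which 1 gene held at least 50%; the top gene had a median of 99.8%. IgG1 was dominant in 321 members (52.6%), IgA in 86 (14.1%), IgM in 61 (10.0%), IgG2c in 60 (9.84%), IgG2b in 59 (9.67%), IgG3 in 15 (2.46%), IgE in 8 (1.31%) and IgD in 0.

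IgG1 was found almost wholly in 2 combinations. It was the class of 176 of 287 members (61.3%, 55.4 to 67.0%) in vehicle Cre-negative and of 140 of 210 (66.7%) in day 7 Cre-positive. It was the class of 0 of 24 in vehicle Cre-positive, where 0 allows up to 12.5% by the limit of 3 counts of the total, of 1 of 40 in day 3 Cre-negative, of 4 of 33 in day 3 Cre-positive and of 0 of 16 in day 7 Cre-negative, where the same limit is 18.8%. Without the members with high doublet scores it was the class of 166 of 269 and 126 of 182 members in the 2 combinations and of 0 of 9, 30, 25 and 3 in the others. Each fraction showed this separately, with 85 of 133 CD31 members and 91 of 154 CD45 members in vehicle Cre-negative, and 31 of 50 and 109 of 160 in day 7 Cre-positive.

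Summed Ighg1 gave the same picture as the cell counts. Members held 207026 Ighg1 UMIs in vehicle Cre-negative and 186278 in day 7 Cre-positive, against 0 in vehicle Cre-positive, 2032 in day 3 Cre-negative, 9916 in day 3 Cre-positive and 17 in day 7 Cre-negative. RNA outside cells, read from barcodes under 100 UMIs of the CD45 libraries, held 3274 and 4574 CPM of Ighg1 in the 2 high combinations and between 0 and 171 CPM in the others. Cell-free Ighg1 was thus high where IgG1 members were many, and was listed at 0 in both libraries of vehicle Cre-positive. IgE, the class that arms mast cells, was dominant in 4 of 287 members (1.39%) of vehicle Cre-negative and 4 of 210 (1.9%) of day 7 Cre-positive. None of the 24, 40, 33 and 16 members with a class in the others was IgE. There 0 allows up to 7.5 to 18.8% by the limit of 3 counts of the total. Both shares lie below that, so these counts do not show a difference.

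IgA and IgM took larger shares where IgG1 was scarce. IgA was the class of 13 of 24 members (54.2%) in vehicle Cre-positive, 10 of 40 (25%) in day 3 Cre-negative, 16 of 33 (48.5%) in day 3 Cre-positive and 11 of 16 (68.8%) in day 7 Cre-negative, against 23 of 287 (8.01%) in vehicle Cre-negative and 13 of 210 (6.19%) in day 7 Cre-positive. Counts of IgA members ranged only from 10 to 23 over the 6 combinations, whereas counts of IgG members ranged from 2 to 235. Without the members with high doublet scores IgA was the class of 5 of 9, 9 of 30 and 15 of 25 members in vehicle Cre-positive, day 3 Cre-negative and day 3 Cre-positive, and of 22 of 269 and 9 of 182 in the 2 combinations rich in IgG1. In day 7 Cre-negative all 11 IgA members had high scores, and the 3 members left were IgM. With all members and both fractions counted, IgM was highest on day 3, with 12 of 40 members (30.0%) under the Cre-negative and 7 of 33 (21.2%) under the Cre-positive label. Without high doublet scores it was the class of 8 of 30 and 5 of 25 members on day 3, and of 2 of 9 in vehicle Cre-positive. It was then the class of 21 of 269 in vehicle Cre-negative and 10 of 182 in day 7 Cre-positive. Among CD45 libraries the highest share was 3 of 9 members, in day 7 Cre-negative. At day 3 under the Cre-negative label IgG2b was the class of 10 of 40 members (25%), its highest share.

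**Figure D2:**
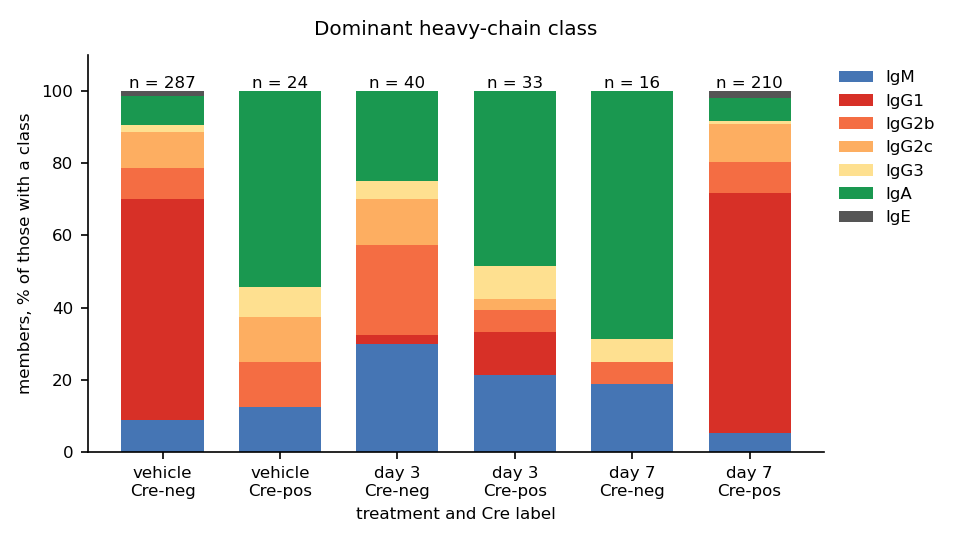
Stacked bars give the share of members (y axis, percent of members with a class) whose dominant heavy chain was each class, by treatment and Cre label (x axis), with the number of members above each bar. IgG1 (red) fills 61.3 and 66.7% of vehicle Cre-negative and day 7 Cre-positive and at most 12.1% of the other bars; IgA (green) is the widest band in 3 of these and IgM, at 30.0%, in day 3 Cre-negative.

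No class difference between the Cre labels passed a test over the 3 treatments, and 3 libraries against 3, with 0.10 as the smallest p, could not have given one. The IgA share was 36.3% ± 26.2 (SD, n = 3) under the Cre-positive and 33.9% ± 31.3 (SD, n = 3) under the Cre-negative label (exact permutation p = 1.0). The corresponding differences were 3.64 percentage points for IgG (exact permutation p = 0.9) and -6.17 for IgM (exact permutation p = 0.5). Within treatments the label difference in IgG ran in opposite directions, from -48.6 percentage points at vehicle to 74.2 at day 7.

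Light chains and variable segments gave a view of the repertoire. Lambda constant genes outweighed kappa in 70 of 613 members (11.4%). At vehicle these were 36 of 288 Cre-negative and 4 of 24 Cre-positive members. In the same label order they were 3 of 40 and 1 of 33 on day 3. On day 7 they were 3 of 16 and 23 of 212. The exact intervals of these shares overlapped in all combinations. Iglc1 held 15.3, 17.8, 22.8 and 16.9% of light-chain UMIs in the vehicle and day 7 combinations but 0.341 and 0.180% on day 3. The log2 change of Iglc1 on day 3 against vehicle was -5.89 (SE 0.64, adjusted p = 0.252 in edgeR). Outside vehicle Cre-negative and day 7 Cre-positive these UMI sums rest on few lambda members. They do not show that fewer members used Iglc1 on day 3. Among 440 members with at least 5 UMIs of both an Ighv and an Igkv segment, 91 of 218 (41.7%) in vehicle Cre-negative and 59 of 133 (44.4%) in day 7 Cre-positive shared their segment pair with another member of the combination. The other combinations, which had 12 to 32 such members, gave 0 to 15.6%; the chance of a shared pair grows with the number of cells, so these shares cannot be compared directly. The most frequent pair was Ighv1-82 with Igkv2-137, in 8 members of vehicle Cre-negative and 3 of day 7 Cre-positive, all of them IgG. Ighv1-64 with Igkv5-48 was seen in 6 members, all IgA, 4 of them in day 3 Cre-positive, and Ighv1-81 with Igkv4-70 in 5 IgG members, all in day 3 Cre-negative. Variable segments are near-identical paralogs that can share reads, so single assignments are uncertain.

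About 1 in 4 members was cycling. Each member was thinned to 2000 UMIs, and a cell with at least 2 UMIs of 12 proliferation genes was called cycling. That gave 148 of 611 members (24.2%, 20.9 to 27.8%), against 315 of 15163 B cells (2.08%), and 47.2% of members without thinning. The share was 24.7, 20 and 6.25% at vehicle, day 3 and day 7 under the Cre-negative label and 25, 24.2 and 25.6% under the Cre-positive label. The low value was 1 of 16 members, with an interval of 0.158 to 30.2% that spans all the others. At least 10% of UMIs were immunoglobulin in 529 of the 613 members, and the cycling share of these was 15.6%. Cycling was thus more frequent among the members with less immunoglobulin.

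**Figure D3:**
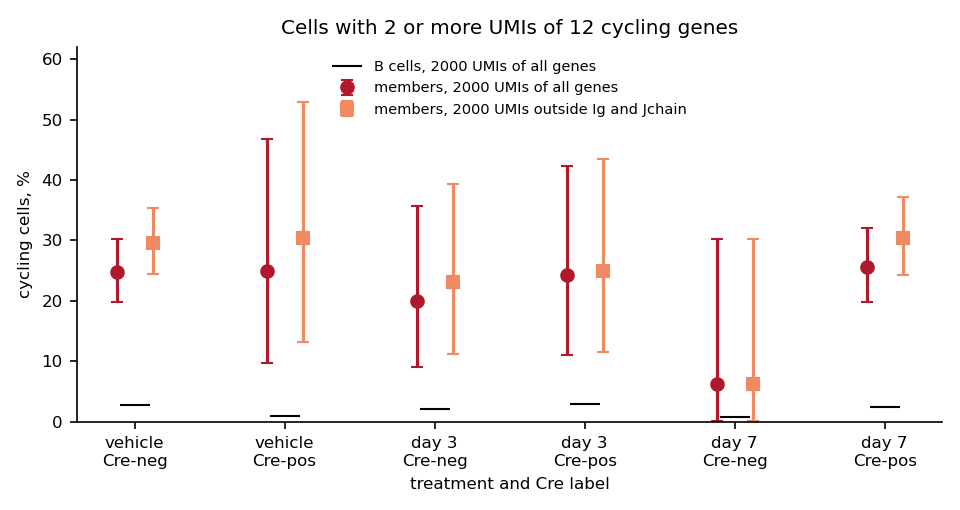
Percent of cells called cycling (y axis) for each treatment and Cre label (x axis), as circles for members thinned to 2000 UMIs of all genes, squares for members thinned to 2000 UMIs outside immunoglobulin genes and Jchain, and black dashes for B cells; bars are 95% exact binomial intervals. Members lie between 20 and 30.4% except in day 7 Cre-negative, at 6.25% with a wide interval, and B cells lie near the bottom of the axis.

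The cycling share was 24.9% ± 0.677 (SD, n = 3) under the Cre-positive and 17.0% ± 9.60 (SD, n = 3) under the Cre-negative label (exact permutation p = 0.2). Since a high immunoglobulin share leaves fewer of 2000 UMIs for other genes, the call was repeated on UMIs outside immunoglobulin genes and Jchain, which gave 171 of 597 members (28.6%). By that call 130 of 446 IgG members (29.2%), 30 of 61 IgM members (49.2%) and 6 of 79 IgA members (7.59%) were cycling. The IgA share was below the IgG share in 4 of the 5 combinations with at least 5 members of each class. In vehicle Cre-positive 4 of 12 IgA and 2 of 8 IgG members were cycling. The IgM share was above the IgG share in vehicle Cre-negative, day 3 Cre-negative and day 7 Cre-positive. In day 3 Cre-positive it was below, with 3 of 7 IgM and 5 of 10 IgG members cycling. Vehicle Cre-positive and day 7 Cre-negative had only 3 IgM members each. The call is a range on a count: 73 members had 1 such UMI, just below it, and 25 had 2.

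Immunoglobulin load differed with the cycling state and between classes. It was a median of 12.5% of UMIs in cycling and 44.1% in noncycling members, lower in cycling members of all 6 combinations, and 16.1% in IgM, 34.6% in IgG and 59.3% in IgA members. In day 7 Cre-negative the medians rest on 1 cycling member, 2 IgG and 3 IgM members. Within combinations the median was higher in IgA than in IgG members in all 6, and lower in IgM than in IgG members in 5. In day 3 Cre-positive it was 36.4% in 7 IgM and 17.6% in 10 IgG members, and over combinations IgM members ranged from 4.13 to 47.3%. By combination it was 34.0, 38.6, 33.5, 38.6, 58.6 and 35.4%, in the order vehicle Cre-negative, vehicle Cre-positive, day 3 Cre-negative, day 3 Cre-positive, day 7 Cre-negative and day 7 Cre-positive. Day 7 Cre-negative was the high one, with 16 members, 11 of them IgA, and the label difference was -4.50 percentage points (exact permutation p = 1.0).

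The secretory programme was strong in every combination. The summed level of 28 ER chaperone and unfolded-protein-response genes was 27980, 30290, 28360, 25640, 13970 and 26070 CPM in that order, against 2834 to 4122 CPM in B cells. Hspa5 (BiP), the main ER chaperone, stood at 1980, 2843, 2208, 2389, 786 and 1966 CPM. Both were lowest in day 7 Cre-negative, whose 16 members are the fewest and include the 13 with high doublet scores given above. These members also had the highest sums of the tissue-dissociation stress list (8038 CPM, against 4052 to 5839 CPM in the others) and of the markers of plasmacytoid dendritic cells (2781 CPM, against 1094 to 1845 CPM), and the part of these in the low chaperone sum was not tested. The same dendritic-cell markers summed to 1557 to 2162 CPM in B cells, 2541 to 2849 CPM in endothelial cells and 304 to 377 CPM in T cells. That sum is thus not particular to plasmacytoid dendritic cells. The 17 plasma-cell identity genes summed to between 11340 and 15720 CPM, against 978 to 1105 CPM in B cells, and the 23 translocon and signal peptidase genes to between 14940 and 18450 CPM, against 2437 to 3012 CPM. Of the genes of the rule, Jchain ranged from 28500 CPM in vehicle Cre-negative to 120300 CPM in day 7 Cre-negative, and Xbp1 from 1288 to 2126 CPM.

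No gene passed the test for treatment or label. With 1 sum of members per combination and an additive model, edgeR's quasi-likelihood test with Benjamini-Hochberg adjustment called 0 of 6551 genes (0%) in each of day 3 against vehicle, day 7 against vehicle, day 7 against day 3 and Cre-positive against Cre-negative. At an unadjusted p under 0.05 edgeR gave 236, 110, 241 and 188 of the 6551 genes. Each of these is below the share of 0.05 expected if no gene differed. DESeq2 called 5, 0, 6 and 0. Without the expression filter edgeR called 79, 17, 75 and 37 of 18762 genes. Leaving out 1 combination gave at most 6 called genes, in day 7 against day 3 without vehicle Cre-positive, where fits have 1 residual sum fewer. In simulated counts the label comparison recovered 17% of 2-fold and 90% of 4-fold changes and the day 3 comparison 6% and 65%, so changes near 2-fold were mostly not detectable. All 28 ER chaperone genes were tested, and their median log2 change was -0.05 on day 3 against vehicle, -0.44 on day 7 against vehicle and 0.23 for the Cre-positive label (22 of 28 higher), beside medians of -0.01, -0.01 and 0.00 over all genes. The values for the chaperone list rested on the day 7 libraries: without day 7 Cre-negative, the combination of 16 members, the medians were -0.13 on day 7 against vehicle and 0.01 for the label, and without day 7 Cre-positive they were -0.89 and 0.02. Hspa5 had a log2 change of -0.91 (SE 0.32, adjusted p = 1 in edgeR) on day 7 against vehicle. Plasma-cell identity genes had medians of 0.04, 0.03 and 0.01 in the same comparisons.

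Cycling and noncycling members differed across the secretory pathway. The 2 states were summed separately in the 5 combinations with at least 5 members of each and paired by combination, a comparison added after the data were seen; immunoglobulin genes and the 12 call genes were left out. Ssr4, a subunit of the translocon-associated complex, was 4511, 3745, 5001, 4183 and 4662 CPM in noncycling members and 1318, 1122, 968, 990 and 1281 CPM in cycling members of vehicle Cre-negative, vehicle Cre-positive, day 3 Cre-negative, day 3 Cre-positive and day 7 Cre-positive. These ranges did not overlap, and Ssr4 fell by 1.99 on the log2 scale (SE 0.12, adjusted p = 1.69e-06 in edgeR). Over all genes 2096 of 4376 (47.9%) were called, 1105 higher (25.3%) and 991 lower (22.6%) in cycling members, so a call by itself was common in this comparison.

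Identity genes of plasma cells were lower in cycling members in 14 of 17 cases and higher in none, with a median log2 change of -1.13 beside -0.01 over all genes. Sdc1 was 183, 200, 279, 179 and 187 CPM in noncycling and 54.4, 99.0, 42.1, 59.6 and 66.4 CPM in cycling members, without overlap (log2 change -1.74, SE 0.20). Txndc5, an ER disulfide isomerase, changed by -1.44, Fkbp11, an ER prolyl isomerase, by -1.44, Mzb1 by -0.86, and the transcription factors Irf4 and Prdm1 by -0.88 and -0.87. Tnfrsf17 fell by 2.20 (SE 0.45), from 174, 327, 282, 279 and 85.2 CPM to 31.6, 165, 7.01, 11.9 and 46.6 CPM. The groups overlapped for Tnfrsf17, because noncycling members of day 7 Cre-positive were low and cycling members of vehicle Cre-positive high. Pou2af1, a B-lineage coactivator, Ell2 and Cd9 were not called.

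Of 28 ER chaperone genes, 18 were lower and 1 higher in cycling members (median -0.65). Edem2, which draws misfolded glycoproteins to degradation, changed by -1.80 (SE 0.19), Derl3 by -1.38, Dnajc3 by -1.21, Pdia4 by -0.90, Hspa5 by -0.68 (SE 0.11, adjusted p = 0.000873 in edgeR) and Hsp90b1 by -0.59. Canx, the membrane lectin chaperone, was the gene called higher, from 216, 176, 275, 245 and 214 CPM to 273, 264, 323, 414 and 245 CPM (log2 change 0.36, SE 0.13, adjusted p = 0.048 in edgeR), while Calr (-0.09) and Pdia6 (0.01) were not called. Canx kept its call in 2 of 10 alternative fits and Syvn1, a ubiquitin ligase of ER-associated degradation, in 3. The 10 genes whose promoters hold the ER stress response element were divided in this fit: 7 were lower, Hspa5, Hsp90b1, Derl3, Dnajc3, Creld2, Syvn1 and the gene named Ero1lb in these files (Ero1b in RefSeq), 1 was higher and 2 were not called. Beside them 18 of all 28 listed genes were lower, and 22.6% over all genes. The count thus does not set genes with the element apart from the rest of the list.

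**Figure D4:**
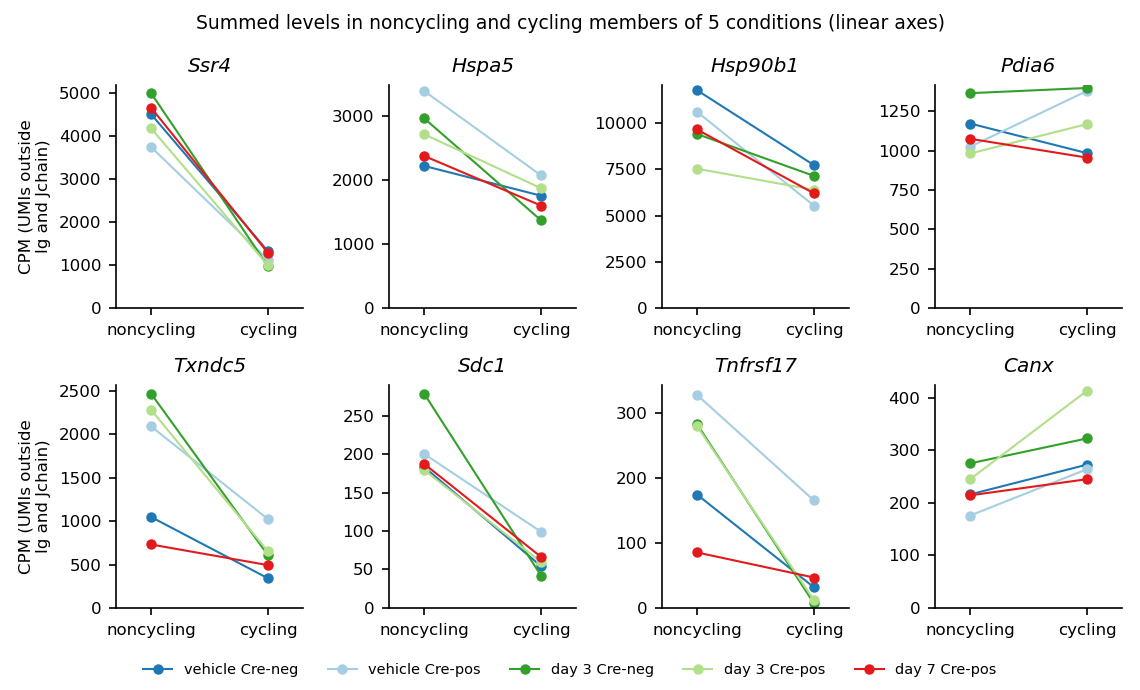
Levels (y axes, CPM of UMIs outside immunoglobulin genes and Jchain, linear from 0) of 8 genes in noncycling and cycling members (x axes), with 1 line for each of 5 combinations of treatment and Cre label. Ssr4, Hspa5, Hsp90b1, Txndc5, Sdc1 and Tnfrsf17 slope down in all 5, Canx slopes up in all 5, and Pdia6 goes both ways.

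Calls in the other secretory lists were mostly towards lower levels in cycling members, beside 22.6% called lower and 25.3% higher over all genes. Of 23 translocon and signal peptidase genes 13 were lower and none higher (median -0.42), among them the signal peptidase subunits Sec11c (-0.95) and Spcs3 (-0.99), while the channel subunits Sec61b (-0.26) and Sec61g (0.20) were not called. Of 15 glycosylation genes 6 were lower, with Krtcap2 at -0.71 and Ddost at -0.73, and Stt3b was higher at 0.39, a call kept in 1 of 10 alternative fits. Of 20 ER-to-Golgi genes tested out of 22 listed, 9 were lower, among them the cargo receptors Tmed10 (-0.93) and Lman1 (-0.49) and the retrieval receptor Kdelr1 (-0.63). Of 15 autophagy genes tested out of 25 listed, 11 were lower (median -0.70), with Map1lc3b, the LC3B protein of the autophagosome membrane, at -1.24 and Lamp2, a lysosomal membrane protein, at -1.47. Some genes counted as lower also lost their call in most alternative fits. Srp14 kept it in 1 of 10, Sec61a1 and Sec31a in 3 each, and Gabarapl2 and Atg13 in 4 each. Others, such as Ssr4 and Map1lc3b, kept it in all 10.

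Genes of growth and of B cells were called in both directions in cycling members, beside 25.3% called higher and 22.6% lower over all genes. Of 8 nutrient and mTORC1 genes tested 3 were higher and 3 lower, of 9 B-cell genes 2 were higher and 1 lower, and of 4 genes of the integrated stress response 1 was higher and 2 lower. Psat1, of serine synthesis, was 9.62, 29.3, 6.80, 8.54 and 10.1 CPM in noncycling and 72.1, 99.0, 35.1, 63.6 and 66.4 CPM in cycling members (log2 change 2.59, SE 0.23), and the glycolytic enzymes Ldha and Pkm changed by 2.09 and 1.48, while the amino-acid transporter chain Slc3a2 changed by -1.43 and Txnip, an inhibitor of glucose uptake, by -1.76. Ms4a1 (CD20) changed by 1.37 (SE 0.33) and was higher in cycling members of 4 of 5 combinations, Mef2b by 1.77 in 5 of 5, and Cd74, the invariant chain of MHC class II, by -0.93; Pax5, which holds B-cell identity, had an estimate of 1.44 (SE 0.55, adjusted p = 0.053 in edgeR) and did not pass. Proliferation genes that the call did not use rose as well, such as Ube2c, which targets mitotic cyclins, from at most 9.16 CPM to between 323 and 670 CPM. The survival protein Mcl1 (-0.92), the interferon-induced Bst2 (-1.71) and the eosinophil granule gene Prg2 (-3.54) were lower.

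Other transcripts moved with the cycling state too. All 5 stromal markers tested were lower in cycling members (median -3.22), as were all 10 genes of a tissue-dissociation stress list (median -1.53), with Fos at -2.64 and Jun at -1.78. Over all genes 22.6% were called lower. Cycling members were deeper outside immunoglobulin, with a median of 22730 against 8772 UMIs, and 12.3% of them against 16.2% had high doublet scores. The states also differed in class, as 6 of 79 IgA members were cycling against 130 of 446 IgG members. Tnfrsf17, Txndc5 and Sdc1, lower in cycling members, were higher in IgA than in IgG members, as given below. The part of these transcripts, depth, doublet scores, class and immunoglobulin share in the differences was not tested. This comparison was not repeated in members with at least 10% immunoglobulin.

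IgA members differed from IgG members of the same combinations in genes of survival receptors and homing. Tnfrsf17, the receptor for the plasma-cell survival factor APRIL, was 74.4, 28.8, 43.3, 29.5 and 45.1 CPM in IgG members and 541, 529, 614, 472 and 473 CPM in IgA members of the same 5 combinations in the same order. The groups did not overlap, the log2 change was 3.52 (SE 0.24, adjusted p = 2.12e-05 in edgeR), and a Tnfrsf17 UMI was present in 83.7% of IgA and 39.1% of IgG members. Over all genes 139 of 2517 (5.52%) were called in this comparison, also added after the data were seen, 93 higher (3.69%) and 46 lower (1.83%) in IgA members. The number was 489 without vehicle Cre-positive, 65 without vehicle Cre-negative, 48 without day 3 Cre-negative, 46 without day 3 Cre-positive and 31 without day 7 Cre-positive.

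Of 18 genes of survival and homing tested, 4 were higher in IgA members, the receptors Tnfrsf17, Ccr10 and Tnfrsf13b and the survival gene Bcl2, beside 3.69% called higher over all genes. Ccr10, a chemokine receptor of IgA plasma cells that home to mucosa, was 22.0, 79.1, 7.22, 3.27 and 18.9 CPM in IgG and 362, 529, 584, 259 and 340 CPM in IgA members (log2 change 4.24, SE 0.39). It was found in 72.1% of IgA, 18.9% of IgG and 0 of 61 IgM members. Tnfrsf13b (TACI), another APRIL receptor, changed by 1.38 and Bcl2, which opposes apoptosis, by 2.85. Runx2, a transcription factor, changed by 5.68 (SE 0.47) and Bst2 by 1.48. Both are also markers of plasmacytoid dendritic cells, and all 4 genes of that marker list tested had higher estimates in IgA members (2 called, median 1.28). Siglech, a marker of these cells outside that list, was at 0 because the rule required it, and the part of such cells in the difference was not tested.

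A minority of secretory genes differed between IgA and IgG members. Of 17 identity genes 4 were higher in IgA members (median 0.70 beside 0.00 over all genes): Tnfrsf17, Txndc5, Tent5c and Sdc1. Txndc5 was 575, 554, 502, 707 and 465 CPM in IgG and 2865, 2864, 5484, 3636 and 3407 CPM in IgA members, without overlap (log2 change 2.67, SE 0.18). Of 27 ER chaperone genes tested, Fkbp2 (0.87) and Edem2 (0.94) were higher and none was lower (median 0.06), beside 3.69% called higher over all genes, while Hspa5 (-0.19, SE 0.34) and Hsp90b1 (-0.11, SE 0.19) were not called. Of 23 translocon and signal peptidase genes, Sec11c (0.90), Tram2 (1.01) and Ssr4 (0.79) were higher; of 13 glycosylation genes only Krtcap2 (0.63), and of 19 ER-to-Golgi genes none. Sdc1, Tent5c, Fkbp2, Edem2, Ssr4, Tram2 and Krtcap2 lost their call in 5 to 7 of 11 alternative fits, while Tnfrsf17, Txndc5, Ccr10, Runx2, Tnfrsf13b, Bst2 and Sec11c kept theirs in all 11. The classes also differed in cycling, with 7.59% of IgA and 29.2% of IgG members cycling. In noncycling members only, 81 genes were called, 50 of them among the 139. That fit also held fewer members, so the part of the cycling state was not tested.

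**Figure D5:**
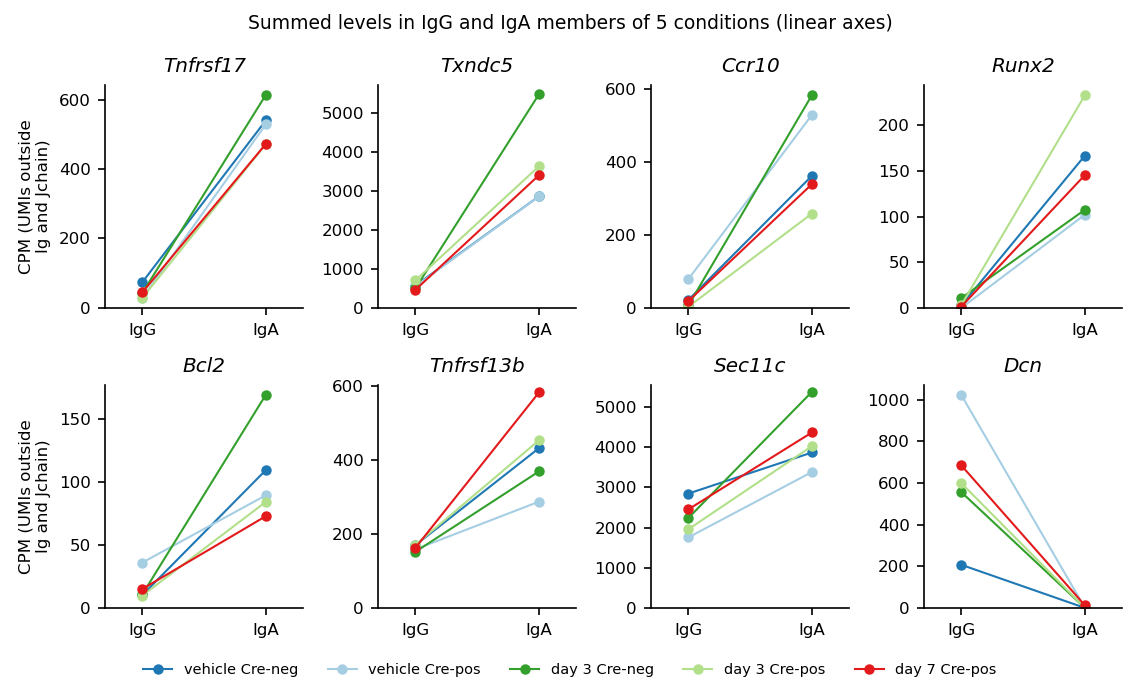
Levels (y axes, CPM of UMIs outside immunoglobulin genes and Jchain, linear from 0) of 8 genes in IgG and IgA members (x axes), with 1 line for each of 5 combinations of treatment and Cre label. Tnfrsf17, Txndc5, Ccr10, Runx2, Bcl2, Tnfrsf13b and Sec11c slope up in all 5 and the stromal gene Dcn slopes down to near 0.

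Among the 46 genes lower in IgA members were 4 of 9 genes of the G2 and M phases tested and the 2 stromal markers tested, beside 1.83% called lower over all genes. The proliferation genes Top2a, Hist1h1b and Pclaf each lost their call in 5 of 10 alternative fits, while Dcn kept its call in all 10 that tested it. Mki67 was 291, 288, 148, 416 and 338 CPM in IgG and 86.3, 217, 0, 58.2 and 24.3 CPM in IgA members, so that only the highest IgA value reached into the IgG range; the log2 change was -2.03 (SE 0.45). Dcn (decorin, a matrix proteoglycan of fibroblasts) was 207, 1022, 556, 599 and 684 CPM in IgG members and 0 in IgA members of 4 combinations and 12.1 CPM, 1 UMI, in the fifth. In day 7 Cre-negative, which was not in the fit, 2 of 11 IgA members held 122 Dcn UMIs (1363 CPM) and the 2 IgG members none. Only 70 of 455 IgG members and 3 of 86 IgA members had a Dcn UMI, with up to 321 in 1 member. In the order of the fit these were 24 of 235, 4 of 8, 1 of 18, 3 of 10 and 38 of 182 IgG members. In day 3 Cre-negative 1 member held all 154 Dcn UMIs. The levels in vehicle Cre-positive and on day 3 thus rest on few members and do not by themselves show a class difference. Slpi, a secreted protease inhibitor, was between 4475 and 34190 CPM in IgG and between 785 and 8203 CPM in IgA members, with overlap (log2 change -2.16, SE 0.34). Of 10 genes of the tissue-dissociation stress list 4 were higher in IgA members (median 0.76), beside 3.69% called higher over all genes. High doublet scores were held by 30.2% of IgA and 11.9% of IgG members, and without the members with the highest scores 303 genes were called, 106 of them among the 139. That fit also lacked vehicle Cre-positive, whose omission alone gave the 489 above, so the number does not show the part of the doublet scores.

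No gene was called between IgM and IgG members, and the estimates for secretory lists were below 0. In 4 combinations edgeR's quasi-likelihood test called 0 of 4118 genes (0%), with 359 at an unadjusted p under 0.05 and 8 called by DESeq2. None of the 28 ER chaperone genes had a higher estimate in IgM members (median log2 change -0.36), and the medians were -0.37 for 23 translocon genes, -0.39 for 19 ER-to-Golgi genes and 0.02 over all genes. The cycling share of each class, given above, differs beside these values, and its part in them was not tested. Ssr4 was 3261, 2945, 1993 and 3150 CPM in IgG and 884, 2002, 2321 and 1337 CPM in IgM members of vehicle Cre-negative, day 3 Cre-negative, day 3 Cre-positive and day 7 Cre-positive (log2 change -0.90, SE 0.32, adjusted p = 0.50 in edgeR).

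Collagens and other stromal genes led the difference between members of the 2 sorted fractions. In the 4 combinations with at least 10 members in both fractions, 25 of 6742 genes (0.371%) were called, all lower in CD31 members, and no gene of the identity or ER chaperone lists was among them. The number was 142 without day 3 Cre-positive, 79 of them higher and 63 lower in CD31 members, and 8 without vehicle Cre-negative. Without the expression filter 170 were higher and 203 lower, so the single direction holds for the genes that passed the filter with these 4 combinations. Col3a1 and Col1a1, fibrillar collagens of fibroblasts, were 179, 330, 490 and 191 CPM and 110, 209, 264 and 175 CPM in CD45 members, and at most 4.70 and 5.91 CPM in CD31 members (log2 changes -5.74, SE 0.34, and -5.41, SE 0.33). A Col3a1 UMI was present in 71 of 387 CD45 members (18.3%) and 2 of 226 CD31 members (0.885%). The 9 stromal markers, 2 of them at 0 in all members, summed to between 1259 and 3422 CPM in the 6 CD45 libraries and to between 0 and 661 CPM in the 6 CD31 libraries. RNA outside cells held between 4738 and 11190 CPM of them in CD45 and between 351 and 1912 CPM in CD31 libraries, the same direction; whether the members' stromal UMIs came from this RNA or from fibroblasts caught with them was not tested. The 8 markers of blood endothelium lay the other way, between 22.9 and 708 CPM in members of the 6 CD31 libraries and between 8.24 and 24.8 CPM in those of the CD45 libraries; none of them passed the expression filter of this fit, and their part in the differences was not tested either. Mzb1 changed by 0.10 (SE 0.24) and Hsp90b1 by 0.18 (SE 0.20) between the fractions, neither of them called.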

How the data were processed

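The deposited matrices hold raw UMI counts per gene and barcode, whole numbers that the authors made with Cell Ranger 7.0.1 on mm10 per the submitters' processing notes (the file headers name Cell Ranger 4); libraries were 10x 3' V2 per the labels. The cell filter, member rule, classes (Python 3.11.15, scanpy 1.11.5) and sums were computed here. T cells had at least 3 UMIs of Cd3d, Cd3e and Cd3g together, no Cd79a UMI and at most 2 of Jchain. Endothelial cells had at least 3 UMIs of Cdh5, Egfl7 and Cldn5 together, no Ptprc UMI and at most 2 of Jchain. Library totals and TMM factors used UMIs outside immunoglobulin genes and Jchain; V segments and rule genes were not tested. edgeR 4.0.16 (R 4.3.3) quasi-likelihood tests on counts, with filterByExpr and adjusted p under 0.05, were checked on simulated data; DESeq2 1.42.0 was an alternative. An SE given with an edgeR log2 change is the size of that change divided by the square root of its F statistic. It was not estimated separately. Fraction, class and cycling fits had the combination as a block. Doublets were scored by Scrublet and kept; an alternative removed 0.8% of cells per 1000 cells. Intervals are exact at 95%.

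Members and lists were chosen with earlier results of these data known. The class and cycling comparisons were added later; the cycling comparison was first run with the cycling call made on UMIs of all genes, then repeated, and is given, with it made outside immunoglobulin genes. Named genes were drawn from the 10 most changed called genes per direction with at least 20 CPM, and per list from the called genes and the 4 with the highest level. Not all genes of these sets are named in the text, and the choice among them was not set by a rule. Atg12, Pax5 and genes set beside these were chosen after their values were seen. Light V segments were limited to Igkv, since Iglv1 led in nearly all members. Lambda constant genes outweighed kappa in only 11.4% of members, so leading Iglv1 counts do not show which light chain a member used. Why Iglv1 led was not tested. Of 32285 features, 32158 (99.6%) were in GENCODE M21. An mRFP feature, listed in the CD31 libraries of the 3 Cre-positive combinations and of day 7 Cre-negative, was not used, and whether it bears on the labels was not tested.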

Additional observations from a re-analysis of the deposited data

Results flagged for a closer look

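The difference in member share between the Cre labels ran in opposite directions at vehicle and at day 7, in both fractions. In the CD45 fraction the library labelled Cre-positive minus that labelled Cre-negative was -1.583 percentage points at vehicle and 1.729 percentage points at day 7. In the CD31 fraction it was -1.21 percentage points at vehicle and 0.7206 percentage points at day 7. With 1 library per label, treatment and fraction the change of direction was not tested, and both fractions come from the same nodes. The libraries labelled vehicle Cre-negative and day 7 Cre-positive, which set these values, are also the 2 in which IgG1 was the most frequent class. Whether labels of these libraries were exchanged was not tested.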

How the results depend on the processing

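Each treatment, label and fraction had 1 library, so treatment and label results rest on the spread between 6 sums, and 6 libraries held only 7 to 15 members. A fit with the replicate number as a block was not possible because the labels give only the number 1; fraction, class and cycling fits were paired by combination, and the label fit had treatment as a term. Without the members with the highest doublet scores the CD31 library of day 7 Cre-negative held no member. No called gene of the sets from which named genes were drawn changed direction in any alternative. Of these genes 79 of 113 kept their call for cycling, 17 of 31 for IgA against IgG and 6 of 10 for the fraction. The counts are for every alternative that tested the gene, and some genes were not tested in all of them. Where values moved, the cause was not tested.

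The label difference in CD45 member share was -0.0056 percentage points with Jchain at least 20 and Xbp1 at least 5, and -0.054 without the highest doublet scores. The cycling share was 32.3% at 5000 UMIs, 47.2% without thinning, 34.9% with 1 UMI and 15.6% in members with at least 10% immunoglobulin. In CD31 libraries only, the IgG label difference was -4.40 percentage points, and in CD45 libraries only that of IgA was -6.25.

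Called genes on day 3 against vehicle were 5 with DESeq2, 79 without the expression filter and 2 without the highest doublet scores. On day 7 against vehicle they were 17 without the filter. On day 7 against day 3 they were 6 with DESeq2, 75 without the filter, 1 with at least 10% immunoglobulin and 5 without the highest doublet scores. For the label they were 37, for the fraction 373 and for cycling 3863 without the filter. For IgA against IgG they were 612 without the filter, 81 in noncycling members, 55 in CD45 libraries and 303 without the highest doublet scores, where the vehicle Cre-positive pair also dropped out (4 pairs in place of 5). For IgM against IgG they were 8 with DESeq2 and 105 without the filter.

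Median log2 changes of lists moved with the fraction. In CD31 libraries only, identity genes gave -0.13 on day 3, -0.13 on day 7, -0.23 for day 7 against day 3 and 0.23 for the label, ER chaperones -0.76 on day 7, translocon genes -0.27 on day 7, -0.39 for day 7 against day 3 and 0.22 for the label, and ER-to-Golgi genes -0.44 for day 7 against day 3. In CD45 libraries only, the label gave -0.11 for identity, -0.16 for translocon and -0.22 for glycosylation genes, translocon genes gave 0.053 on day 7 and 0.0044 for day 7 against day 3, and ER-to-Golgi genes -0.0066. With at least 10% immunoglobulin, identity genes gave -0.091 for the label and translocon genes -0.030 on day 3.

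Leaving out each combination in turn, label differences ranged from -0.498 to 0.555 percentage points for CD45 and -0.397 to 0.236 for CD31 member share, -10.6 to 19.8 for IgA, -14.6 to 21.4 for IgG, -11.4 to -0.747 for IgM, 2.58 to 11.8 for the cycling share and -8.76 to 3.79 for immunoglobulin. Called genes ranged from 0 to 4 on day 3, 0 to 3 on day 7, 0 to 6 for day 7 against day 3, 0 to 3 for the label, 8 to 142 for the fraction, 31 to 489 for IgA against IgG and 1401 to 3023 for cycling.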
